A study of Ovis aries with 3 samples.

Results

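The transcripts described here encode the endosomal sorting machinery, measured in extracellular vesicles that sheep (Ovis aries) conceptuses of day 14 released into culture medium. The members were the rows of the deposited table whose symbol, without any numbered suffix, was TSG101, PDCD6IP, PDCD6, HGS, STAM, STAM2, SDCBP or VTA1 or began with CHMP, VPS or SNX and a digit. This gave 69 of 25197 rows. Sorted by textbook complex or family they were 22 ESCRT rows, 21 other VPS rows and 26 sorting nexin (SNX) rows. The ESCRT rows were counted with the accessory factors PDCD6IP and SDCBP, and SDCBP is not a subunit of an ESCRT complex. Of the 8 names spelled out in the rule 7 had a row, and PDCD6, a calcium-binding partner of PDCD6IP, was not analysed here.

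All samples formed 1 group of 3 libraries, with no control and no RNA of the conceptus cells themselves. Intact conceptuses were each cultured for 24 h in 10 ml of medium with 10% exosome-depleted fetal bovine serum, the medium was filtered at 0.2 µm, and vesicles were precipitated with ExoQuick-TC. A conceptus is the embryo with its extraembryonic membranes, and since no label says which animal a library came from, the SDs here measure the spread of these libraries, some of which may be technical. Values are in RPKM-type units, that is reads scaled for gene length and library depth and rounded to 1 decimal, so levels of different genes are compared per length throughout.

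ESCRT complexes bud membrane away from the cytosol. On endosomes they sort ubiquitinated cargo into the internal vesicles of multivesicular bodies, some of which are released from the cell as exosomes, and TSG101 and PDCD6IP proteins are widely used as vesicle markers. The other VPS proteins, first defined in yeast vacuolar sorting, mostly form coats and tethers of the endosome, such as retromer, HOPS and GARP. Sorting nexins bind endosomal phosphoinositides and, with retromer, return cargo to the Golgi or the cell surface. The values below are of transcripts inside vesicle preparations, not of these proteins.

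The libraries differed in total. Summed values over all rows were 17481, 40060 and 9532 in libraries 1, 2 and 3, so library 2 stood 4.20 times above library 3. Depth estimated from copies of the U6 small nuclear RNA differed less, with libraries 1 and 3 at 1.28 and 1.21 times the depth of library 2. In a gene 10 times as long as U6, a value of 1 stood for an estimated 23.7, 18.5 and 22.3 reads, and a value under 0.05, which is printed as 0, for about 1 read or fewer (1.18, 0.923 and 1.11). The trophectoderm is the outer epithelium of the conceptus. Of its markers, the keratin KRT8 (26.3, 138.9 and 27.3) and the interferon tau row TP-1 (6.7, 26.2 and 4.7) were present in all libraries. Among the regulators, GATA3 stood at 0.9, 0.9 and 3, above 1 in library 3 alone. TFAP2C (0.2, 0.5 and 0.4), CDX2 (0.5, 0.2 and 0), TFAP2A (0, 0.1 and 0.1) and GATA2 (0 in each) stayed under 1. The 4 erythroid and 6 leukocyte rows had no member at 1 or more in all 3 libraries. Only 3.89% of all rows were, so this is no result about those cells. The leukocyte rows AIF1 (0.3, 2.8 and 4.1), CD74 (1.5, 1.3 and 0.1) and CD68 (0.1, 1.5 and 0) reached 1 in some libraries, and no erythroid row did. Of 3 uterine epithelium rows 2 were at 1 or more in all 3 libraries, LGALS15 (18.8, 74.2 and 4.5) and CST6 (24.9, 49.1 and 1.1). The part of the leukocyte and uterine rows in the results was not tested.

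Of the 69 rows 3 reached a value of 1 in all 3 libraries, called detected here. They were VPS29 of retromer, the sorting nexin SNX3 and the ESCRT-III subunit CHMP2A, so that each of the 3 groups had 1. The share, 4.35%, lay near that of all rows (3.89%) and of the 15503 rows with a symbol outside the small RNA families (3.95%), and it is therefore no result about the members. A further 6 rows reached 1 in 2 libraries, which made 9 rows or 13.0% in 2 or 3 libraries, against 9.02% of all rows and 9.82% of rows with a symbol. Another 15 (21.7%) did so in 1 library and 45 (65.2%) in none, against 8.91% and 82.1% of all rows. Of rows with a symbol, 80.8% reached 1 in no library. The mean was under 0.5 in 47 rows (68.1%, against 80.9% of all rows), and 41 were listed at 0 in at least 1 library (59.4%, against 61.2%). VPS26B, VPS53 and SNX22 were listed at 0 in all 3, as were 21.6% of all rows and 11.7% of rows with a symbol.

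**Figure D1:**
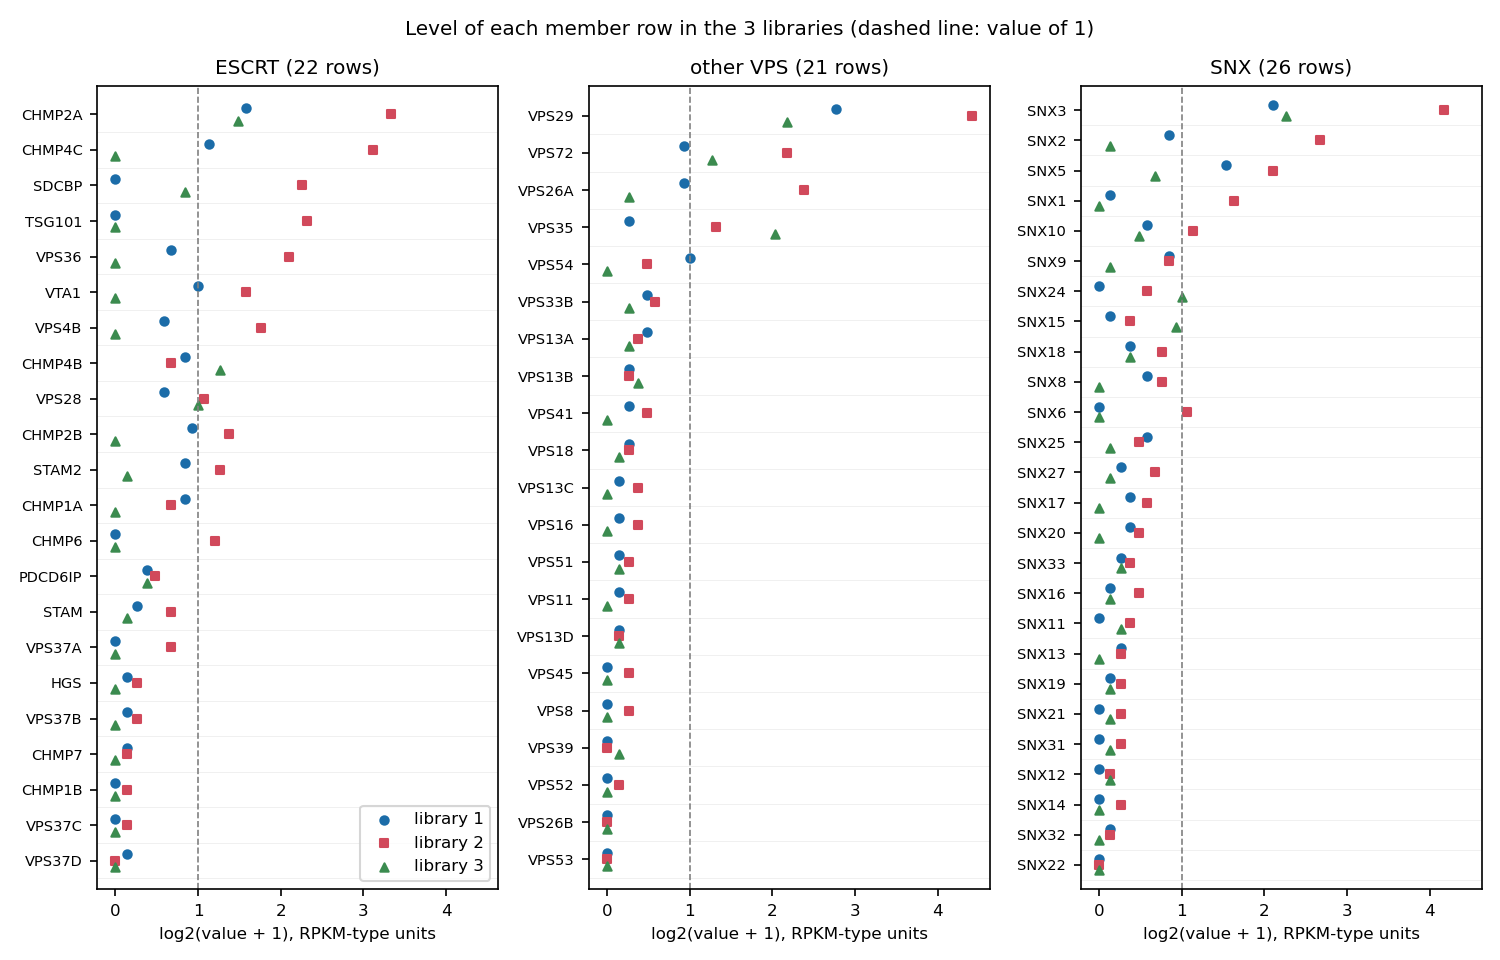
Level of every member row as log2(value + 1) in RPKM-type units on the horizontal axis, with 1 marker per library and rows sorted by their mean within ESCRT, other VPS and SNX. VPS29, SNX3 and CHMP2A are the rows whose 3 markers all lie right of the dashed line at a value of 1, and library 2 has the rightmost marker in 48 of the 69 rows.

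ESCRT-III forms the filaments that constrict and cut the bud neck. CHMP2A, one of its late-acting subunits, had the highest level of the 22 ESCRT rows under the rule. The ESCRT-II subunit SNF8, outside the rule, was above CHMP2A in libraries 1 and 3 (3.6 and 3.2) and below it in library 2 (7.1). CHMP2A (ENSOARG00000003984) stood at 2, 9.1 and 1.8 in libraries 1, 2 and 3, a mean of 4.3 ± 4.16 (SD, n = 3). It ranked 1008th, 506th and 965th among the 25197 rows. In the deposited values library 2 was thus well above the other pair, which lay close together. With every library scaled to the same sum CHMP2A stood at 2.56, 5.08 and 4.22, so library 3 then lay nearer to library 2. The 99th percentile of 476 olfactory receptor rows, used as a background level, was 1.45, 1.02 and 1.75, and CHMP2A was above it in each library, in library 3 only just.

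The filament-forming CHMP4 subunits were ordered differently in libraries 2 and 3. CHMP4C, which also acts in the abscission checkpoint of cell division, stood at 1.2, 7.7 and 0. CHMP4B, described as the main CHMP4 form in mammalian cells, stood at 0.8, 0.6 and 1.4 and was highest in library 3, where CHMP4C was listed at 0. Every CHMP4B value lay below the olfactory receptor percentile of its library, and CHMP4C was above it in library 2 alone. The change of order thus rests partly on values at the background level. Of the remaining subunits, CHMP2B (0.9, 1.6 and 0), CHMP1A (0.8, 0.6 and 0), CHMP6 (0, 1.3 and 0), CHMP7 (0.1, 0.1 and 0) and CHMP1B (0, 0.1 and 0) were all listed at 0 in library 3. Of 8 ESCRT-III rows 6 were therefore at 0 there, against 2 in library 1 and none in library 2. Of all rows 48%, 39.6% and 34.1% were listed at 0 in libraries 3, 1 and 2.

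Among the members, the ESCRT-0, ESCRT-I and ESCRT-II subunits, which act before ESCRT-III, lay below CHMP2A in every library. Among the ESCRT-0 genes, which recognise ubiquitinated cargo, the adaptor STAM2 stood at 0.8, 1.4 and 0.1, its paralog STAM at 0.2, 0.6 and 0.1, and HGS, their partner that binds the endosome lipid, at 0.1, 0.2 and 0. TSG101 (ENSOARG00000009503), the ESCRT-I subunit that binds ubiquitin, stood at 0, 4 and 0. Its transcript was thus listed in library 2 alone, where it ranked 1052nd.

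VPS28, another core ESCRT-I subunit, was more even, at 0.5, 1.1 and 1. The alternative ESCRT-I subunits VPS37A (0, 0.6 and 0), VPS37B (0.1, 0.2 and 0), VPS37C (0, 0.1 and 0) and VPS37D (0.1, 0 and 0) did not reach 1 in any library. The single ESCRT-II member under the rule, VPS36, which binds ubiquitin and endosomal lipid, stood at 0.6, 3.3 and 0.

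The disassembly and accessory factors had their highest deposited value in library 2. With every library scaled to the same sum this held for VPS4B and SDCBP, while VTA1 was highest in library 1 and PDCD6IP in library 3. The ATPase VPS4B, which takes ESCRT-III filaments apart, stood at 0.5, 2.4 and 0, and its activator VTA1 at 1, 2 and 0. SDCBP (syntenin), which links syndecans to PDCD6IP, stood at 0, 3.8 and 0.8. PDCD6IP (ALIX), the bridge from cargo to CHMP4, was low, and nearly even in the deposited values at 0.3, 0.4 and 0.3. Scaled to the same sum it stood at 0.38, 0.22 and 0.70. Of the 22 ESCRT rows it had, at 0.0577, the smallest SD of deposited values among those above 0 in every library. At so low a level this SD is limited by the rounding to 1 decimal.

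VPS29 had the highest mean of all members, a mean raised by library 2. It was the highest member in libraries 1 and 2, and in library 3 SNX3 was higher (3.8, against 3.5 for VPS29). VPS29 is the metallophosphoesterase-like subunit of retromer, the coat that retrieves cargo from endosomes. VPS29 (ENSOARG00000016933) stood at 5.8, 20.3 and 3.5, a mean of 9.87 ± 9.11 (SD, n = 3), and ranked 290th, 241st and 394th. Scaled to the same sum, VPS29 stood at 7.42, 11.3 and 8.21. It made up 54.2%, 61.3% and 37.6% of the summed value of the other VPS rows.

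Its retromer partners were lower in each library. The arrestin-like cargo subunit VPS26A stood at 0.9, 4.2 and 0.2 and its paralog VPS26B at 0 in all 3. The scaffold VPS35 stood at 0.2, 1.5 and 3.1, so library 3 was its highest and nearly reached VPS29 there. The comparison with these partners was made after the values were seen, so it is a description with no test. The difference of log2(value + 1) was 1.93 ± 0.10 from VPS26A and 1.91 ± 1.57 from VPS35 (SD, n = 3). The small SD against VPS26A depends on the added 1, since with 0.1 added the difference was 2.80 ± 0.70 (SD, n = 3).

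Beyond retromer, VPS72 was the next VPS row, at 0.9, 3.5 and 1.4. Despite its name it is known in mammals as a histone-binding subunit of chromatin remodelling complexes. Subunits of the HOPS and CORVET tethers, which join late and early endosomal membranes, stayed under 1 in every library in 7 of 7 rows, as did 82.1% of all rows, so this is no trait of the tethers. In this class VPS33B, a Sec1/Munc18-like protein placed beside the tethers, was highest (0.4, 0.5 and 0.2) and VPS39 lowest (0, 0 and 0.1).

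The GARP tether, which receives endosome carriers at the Golgi, had VPS54 at 1, 0.4 and 0 and VPS53 at 0 in all libraries. The VPS13 lipid transfer proteins were low, with VPS13A at 0.4, 0.3 and 0.2, VPS13B at 0.2, 0.2 and 0.3, VPS13C at 0.1, 0.3 and 0 and VPS13D at 0.1 in each library. VPS45, a regulator of endosomal SNARE fusion, stood at 0, 0.2 and 0.

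SNX3 led the sorting nexins. It consists of little more than the lipid-binding PX domain and works with retromer as a cargo adaptor. SNX3 (ENSOARG00000010805) stood at 3.3, 17.1 and 3.8, a mean of 8.07 ± 7.83 (SD, n = 3), and ranked 567th, 270th and 355th. Scaled to the same sum, SNX3 stood at 4.22, 9.54 and 8.91, so library 3 then lay near library 2. It supplied 32.0%, 45.8% and 45.8% of the summed value of the SNX rows. Its paralog SNX12 stood at 0, 0.1 and 0.1.

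The SNX-BAR proteins, which bend membrane into tubules and pair as SNX1 or SNX2 with SNX5 or SNX6, came next. SNX2 stood at 0.8, 5.4 and 0.1 and SNX5 at 1.9, 3.3 and 0.6. Their paralogs were lower, with SNX1 at 0.1, 2.1 and 0 and SNX6 at 0, 1.1 and 0. SNX32 was the lowest BAR member (0.1, 0.1 and 0).

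None of the 7 SNX-FERM and SNX-RGS rows reached 1 in any library, which is near the background of 82.1% of all rows. SNX27 (0.2, 0.6 and 0.1), a PDZ protein that couples receptors to retromer, and SNX31 (0, 0.2 and 0.1) were the highest and lowest FERM rows. SNX25 (0.5, 0.4 and 0.1) and SNX14 (0, 0.2 and 0) held those places among the RGS rows, and SNX22, of the PX class, was listed at 0 throughout. A row without a symbol but described as sorting nexin 29, named here after its values were seen, fell outside the rule.

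Paralogs were compared within each library in 10 pairs, listed after the values were seen and therefore given no test. The first-named gene was higher in 3 of 3 libraries for CHMP2A over CHMP2B, SNX3 over SNX12, SNX5 over SNX6 and VPS26A over VPS26B, and lower in 3 of 3 for SNX1 against SNX2. Differences of log2(value + 1) in these 5 pairs were 1.37 ± 0.66, 2.76 ± 1.11, 1.08 ± 0.43, 1.19 ± 1.08 and -0.63 ± 0.46 (SD, n = 3). In library 3 both genes lay below the olfactory receptor percentile for SNX5 (0.6) and SNX6 (0), VPS26A (0.2) and VPS26B (0), and SNX1 (0) and SNX2 (0.1). In library 1 the same held for VPS26A with VPS26B and for SNX1 with SNX2. These directions thus rest partly on values at the background level. In the other 5 pairs the libraries did not all show one direction, or were equal in at least 1. CHMP4B minus CHMP4C, at -0.29, -2.44 and 1.26, gave -0.49 ± 1.86 (SD, n = 3), and without library 2 the mean was 0.49.

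**Figure D2:**
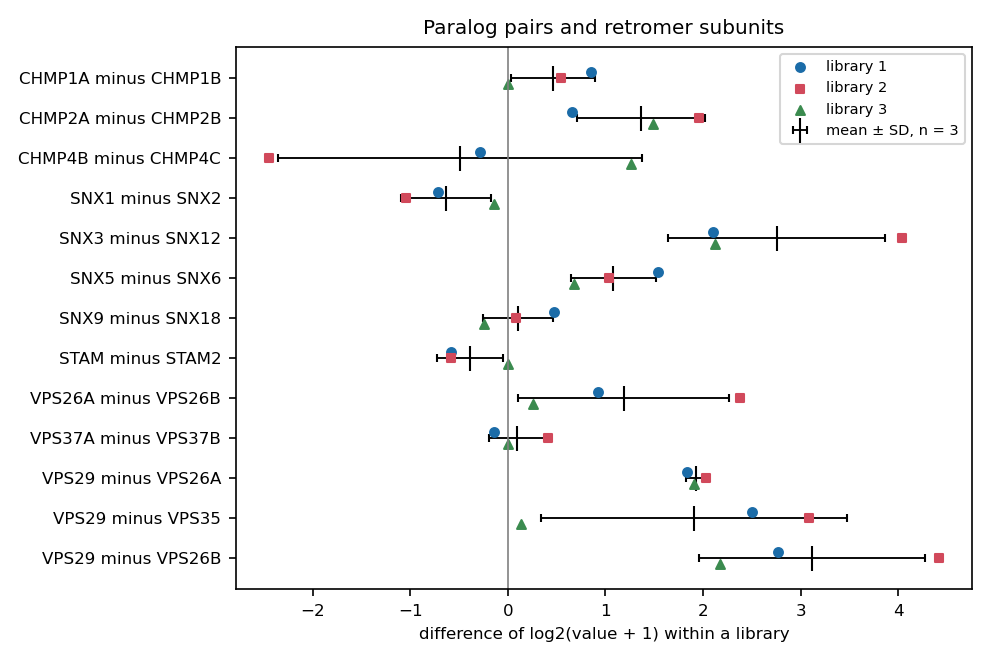
Difference of log2(value + 1) between the members of 10 paralog pairs and between VPS29 and the other retromer subunits, within each library (markers) and as mean ± SD over the 3 libraries (bars). A gene listed at 0 enters as 0, so the differences are no fold changes. The markers of 5 paralog pairs all lie on one side of 0, and those of CHMP4B minus CHMP4C run from -2.44 to 1.26.

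Set against the other groups, ESCRT had the largest share of rows at 1 or more in library 2 and the largest share listed at 0 in library 3. In library 2, 50% of ESCRT rows were at 1 or more, against 19.0% of other VPS rows, 23.1% of SNX rows and 13.6% of all rows. In library 1 the shares were 13.6% of ESCRT rows, 9.52% of other VPS rows, 7.69% of SNX rows and 9.37% of all rows. In library 3 they were 13.6% of ESCRT rows, 14.3% of other VPS rows, 7.69% of SNX rows and 7.88% of all rows. Among rows with a symbol alone, 9.49%, 16% and 7.51% were at 1 or more in libraries 1, 2 and 3. The ESCRT share rested on 11 of 22 rows in library 2 and on 3 rows in each of the others. A value of 1 lies below the olfactory receptor percentile of each library. All 11 rows of library 2 were above that percentile. In library 1 CHMP4C (1.2) and VTA1 (1) were below it, and in library 3 CHMP4B (1.4) and VPS28 (1). Only CHMP2A was above it in those libraries, so the shares are not alike across libraries. Its size depends on the scaling. With every library scaled to the same sum, 7, 7 and 4 ESCRT rows (31.8%, 31.8% and 18.2%) were at 1 or more in libraries 1, 2 and 3. Other VPS rows gave 4, 3 and 3 (19.0%, 14.3% and 14.3%) and SNX rows 4 in each (15.4%), against 12%, 8.5% and 14% of all rows. ESCRT thus kept the largest share of the 3 groups, but libraries 1 and 2 no longer differed in it. These scaled shares rest on 3 to 7 rows each.

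Listed at 0 in library 3 were 15 of 22 ESCRT rows (68.2%), 10 of 21 other VPS rows (47.6%), 9 of 26 SNX rows (34.6%) and 48% of all rows. In library 1, 27.3% of ESCRT rows, 28.6% of other VPS rows, 30.8% of SNX rows and 39.6% of all rows were listed at 0. In library 2 these shares were 4.55%, 14.3%, 3.85% and 34.1%, in the same order. Library 1 was near library 3 in U6-based depth but had 1.83 times its summed value. The part of depth in the zeros was not tested. Of rows with a symbol, 30.6%, 21.5% and 41% were listed at 0 in libraries 1, 2 and 3. These are counts of rows within single libraries and carry no test.

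**Figure D3:**
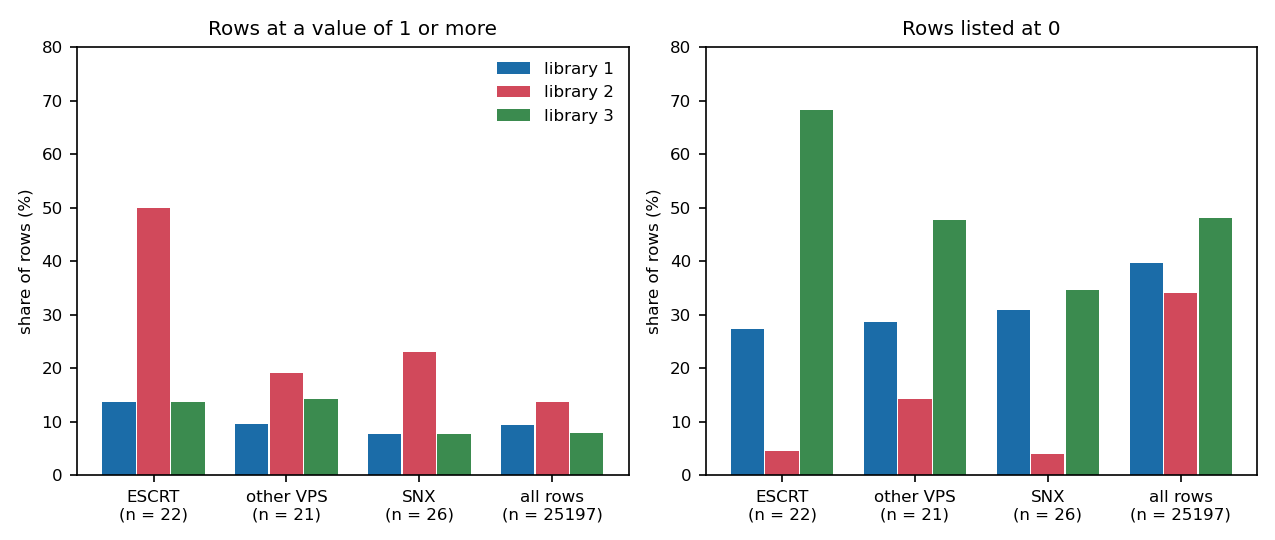
Share of rows at a value of 1 or more (left) and listed at 0 (right), in percent, for ESCRT, other VPS and SNX rows and for all rows of the table, with 1 bar per library. The tallest bars of the ESCRT group are those of library 2 on the left (50%) and of library 3 on the right (68.2%).

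The rows high in library 2 can be followed into the other libraries, as a description only, since their choice by library 2 favours lower values elsewhere. Of the 11 ESCRT rows at 1 or more in library 2, 7 were listed at 0 in library 3, namely CHMP2B, CHMP4C, CHMP6, TSG101, VPS36, VPS4B and VTA1. The same held for 0 of 4 other VPS rows and for 2 of 6 SNX rows (SNX1 and SNX6), and for 26.3% of all rows at 1 or more in library 2. In library 1, 3 of the 11 ESCRT rows were at 0, against 0 of 4 other VPS rows, 1 of 6 SNX rows and 7.58% of all such rows. With 4 to 11 rows a group, these shares are coarse.

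Summed values of the ESCRT rows were 10, 41.2 and 5.5 in libraries 1, 2 and 3, against 10.7, 33.1 and 9.3 for other VPS rows and 10.3, 37.3 and 8.3 for SNX rows. Library 2 exceeded library 3 by 7.49 times for ESCRT rows, 3.56 times for other VPS rows, 4.49 times for SNX rows and 4.20 times for all rows. As a share of the library's summed value ESCRT rows took 0.0572%, 0.103% and 0.0577%, other VPS rows 0.0612%, 0.0826% and 0.0976%, and SNX rows 0.0589%, 0.0931% and 0.0871%. ESCRT thus had the highest share of the 3 groups in library 2 and the lowest in libraries 1 and 3. Without CHMP2A the ESCRT sums were 8, 32.1 and 3.7, those of other VPS rows without VPS29 4.9, 12.8 and 5.8, and those of SNX rows without SNX3 7, 20.2 and 4.5.

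The median ESCRT level, as log2(value + 1), was 0.32, 0.87 and 0 in libraries 1, 2 and 3. It was 0.14, 0.26 and 0.14 for other VPS rows, 0.20, 0.49 and 0.14 for SNX rows, and 0.14 in each library for all rows. ESCRT minus other VPS was 0.22 ± 0.38 and ESCRT minus SNX 0.12 ± 0.26 (SD, n = 3), both above 0 in 2 of 3 libraries and below 0 in library 3. Among rows with a mean of 0.5 or more both turned, to -0.75 and -0.12, and without library 2 ESCRT minus SNX was -0.0085. That filter left few rows, among other VPS only VPS29, VPS72, VPS26A and VPS35. Both differences were smaller than their spread between libraries. No p is given for a score over members.

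**Figure D4:**
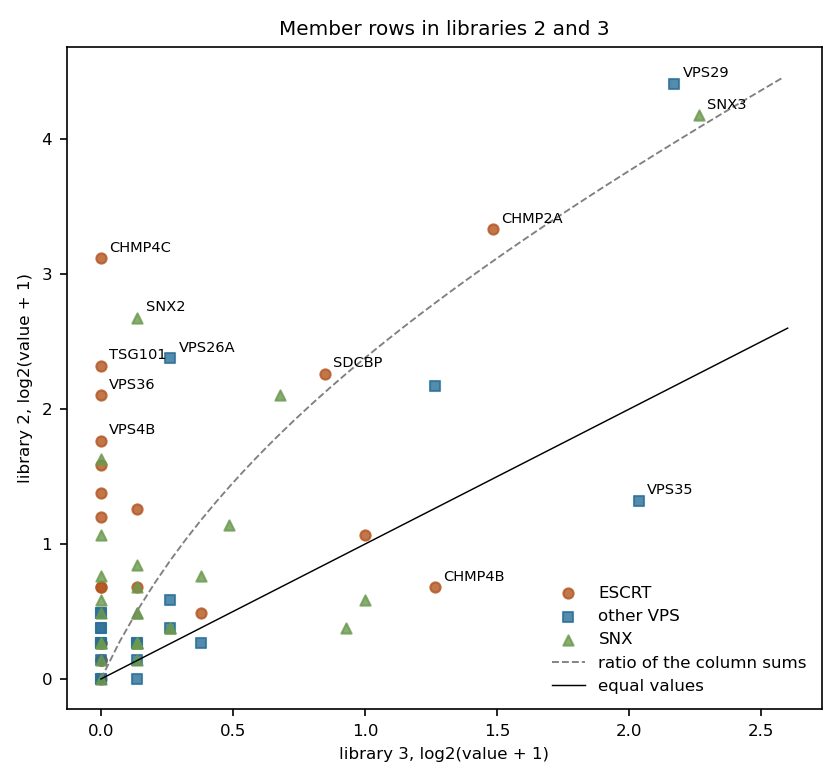
Each member row in library 2 (vertical axis) against library 3 (horizontal axis), both as log2(value + 1) in RPKM-type units, marked by group. The solid line marks equal values and the dashed line the ratio of the column sums (4.20). CHMP4C, TSG101, VPS36 and VPS4B lie on the vertical axis at 0 in library 3, and VPS35 and CHMP4B lie below the line of equal values.

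Library 2 held the highest value alone in 18 of 22 ESCRT rows, 12 of 21 other VPS rows and 18 of 26 SNX rows, together 48 of 69, against 33.6% of all rows and 40.6% of rows with a symbol. With every library scaled to the same sum, it did so in 11 ESCRT rows, 7 other VPS rows and 6 SNX rows, together 24, against 16.7% of all rows. The rows that reached 1 in 1 library alone did so in library 2 in 12 of 15 cases among the members and in 57.7% of the 2246 such rows overall. The other 3 members were CHMP4B and SNX24, which did so in library 3, and VPS54, which did so in library 1.

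Partners of the machinery outside the rule were taken from 4 lists, and symbols without a row were not analysed. Of 15 further ESCRT-related genes 2 were detected (13.3%). SNF8, the ESCRT-II subunit that VPS36 binds, stood at 3.6, 7.1 and 3.2, so it was present in library 3, where VPS36 was listed at 0. The deubiquitinase USP8, which acts on endosomal cargo and ESCRT-0, stood at 1.5, 1.4 and 1.2, below the olfactory receptor percentile in library 3. The deubiquitinase STAMBP, a binding partner of STAM, was next at 0.7, 1.5 and 1.1.

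Of 14 RAB and SNARE genes of vesicle release 1 was detected, the recycling endosome regulator RAB11A at 1.4, 4.5 and 2.4. In library 1 RAB11A was just below the olfactory receptor percentile (1.45). RAB5C, an early endosome regulator, stood at 0.8, 5 and 0 and the plasma membrane SNARE SNAP23 at 1.1, 2.3 and 0.3. RAB27A (0, 0.1 and 0.2) and RAB27B (0, 0.4 and 0), known for exosome release, were named here after their values were seen.

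None of 13 retromer, HOPS and phosphoinositide partners was detected, with the late endosome regulator RAB7A (1.3, 6.1 and 0.2), the WASH complex subunit CCDC53 (0.5, 4.6 and 0) and the early endosome tether EEA1 (0.4, 1.1 and 0) leading. None of 9 syndecan, syntenin and ceramide pathway genes was detected either. The small GTPase ARF6 (0.5, 2.9 and 0.3) and the syndecans SDC4 (0.2, 1.6 and 0.6) and SDC2 (0.4, 0.6 and 0.1) led that list. In all rows 3.89% were detected, and with 9 to 15 rows a list 1 row moves the share by several percentage points.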

How the data were processed

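RNA of vesicles from conceptuses of day 14 was extracted (miRNeasy kit), 5 ng of it was made into SMART-Seq v4 libraries, and these were sequenced as paired ends of 50 bp, per the labels' protocols. The authors deposited 1 table with a symbol or identifier, 1 value per library and their mean (within 0.0667 of the mean of the columns). Its unit is not named. The deposited values were taken as RPKM, with FPKM not distinguishable, because column sums differ and values are rounded to 1 decimal. Per the submitters' processing notes, the genome build was Oar_v3.1. Aligner and counter: not given in the sources used here. Gene names were those of the table. All 69 symbols, but 0 of the Ensembl identifiers, matched the RefSeq table, whose assembly differs, so no coordinates or sequences are given. No member symbol had numbered copies, and 0 per-library columns were left unused.

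Columns were matched to libraries by title, and libraries numbered by label order. The members, classes and lists were chosen with earlier results of these data known. Detection meant 1 or more in all 3 libraries, and levels were log2(value + 1), with no filter. Depth came from 1012 U6 rows, where 1 read was worth an estimated 0.423, 0.542 and 0.449. Of the 260, 212 and 172 values used, 83.1%, 68.4% and 77.3% lay within 0.05 of a whole multiple. The depth is otherwise unknown and counting intervals were not computed. Named genes were the detected members, the highest and lowest mean of each class, the names spelled out in the rule and, of the pathway lists, detected genes and the 3 highest; other members are named to complete their class. Other detection values, scalings, pseudocounts and left-out libraries were tried. Calculations used Python 3.11.15, numpy 2.4.6, pandas 2.3.3 and scipy 1.17.1. Only the detection call and the U6 estimate were tested on simulated data, where U6 values were whole multiples before rounding.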

Additional observations from a re-analysis of the deposited data

How the results depend on the processing

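The count of 3 detected members became 7 at a detection value of 0.5, 9 when 2 libraries sufficed, 5 at the same column sum, and 3 to 6 with 1 library left out. VPS28, VPS35 and VPS72 were gained without library 1, and CHMP4C, SNX5 and VTA1 without library 3. ESCRT rows, 1 in the main count, gave 3 at 0.5, 0 at a value of 2 (CHMP2A stood at 1.8 in library 3), 4 with 2 libraries, and 1 to 3 with 1 left out. Other VPS rows gave 2 at 0.5, 3 with 2 libraries, 2 at the same column sum and 1 to 3 with 1 left out. SNX rows gave 2, 2 and 2 under those settings and 1 to 2 with 1 left out. The share of all rows, 3.89% in the main count, was 7.56% at 0.5, 1.89% at a value of 2, 9.02% with 2 libraries, 4.25% at the same column sum, and 5.06%, 4.45% and 7.30% without library 1, 2 and 3. ESCRT minus other VPS turned to -0.75 and ESCRT minus SNX to -0.12 among rows with a mean of 0.5 or more, which leaves fewer rows. With 1 library left out they ran from 0.0229 to 0.40 and from -0.0085 to 0.25. Pseudocounts of 0.1 and 0.5 kept both signs. Among the 13 pair differences, all 13 kept their sign at the same column sum and with 0.1 added, and those that changed sign with a library left out were CHMP4B minus CHMP4C (0.49, without library 2), SNX9 minus SNX18 (-0.0793, without library 1) and VPS37A minus VPS37B (-0.0687, without library 2). The cause of these shifts was not tested. No paired analysis was possible because the study has 1 group. Rounding to 1 decimal limits every value near 0.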
